A study of Homo sapiens with 15 samples.

Results

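The translation initiation and elongation factors are the proteins that bring a ribosome to the start codon of an mRNA and then move it along the coding sequence. They were taken as every gene symbol in the count tables that begins with EIF or EEF and a digit, leaving out symbols with a hyphen (6, readthrough genes and antisense or divergent transcripts) and symbols that end in P and digits (5, among them the eIF4E binding proteins, which are described separately). This gave 68 of 43388 symbols. Grouped by symbol, they were 5 genes of eIF1 and eIF1A, 11 of eIF2 and its exchange factor, 4 eIF2 kinases and 14 of eIF3. The others were 13 of eIF4, 6 of eIF5 and eIF6, 8 elongation factors and 7 elongation factor modifiers. The elongation group includes EEF1D_1, a symbol without a count. A group can hold a gene of another role, such as EIF2D, which can act without eIF2. The cells were A549, a human lung adenocarcinoma line with epithelial features, so all libraries represent 1 line. RNA-seq was made after 72 h in 95% oxygen (hyperoxia) or 21% oxygen (normoxia). At each oxygen level 2 libraries received ethanol vehicle, 3 received all-trans retinoic acid (ATRA) at 1e-05 mM, and 2 have labels that name neither. The study's methods say that control cells were given ethanol, so these 2 may have had it too. They are called libraries without vehicle below, after their labels. Nothing in the labels says that libraries of a group came from separate cultures, so the p-values measure the spread between libraries, which may be technical.

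Initiation starts when eIF2 carries the initiator tRNA to the small ribosomal subunit, where eIF1, eIF1A, eIF3 and eIF5 assemble a scanning complex. The cap-binding complex eIF4F, made of eIF4E, eIF4G and the helicase eIF4A, brings in the mRNA. Elongation is carried by eEF1A, which delivers aminoacyl-tRNA, the eEF1B complex, which reloads eEF1A with GTP, and eEF2, which drives translocation. Cells under stress slow initiation through kinases that phosphorylate eIF2 and through the eIF4E binding proteins, and many translation genes have mRNAs that open with a run of pyrimidines, the feature through which mTORC1 controls their translation.

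The start-site sequences of 8 members are shown because the oxygen results below turn on these genes and because 5 of them open with such a pyrimidine run. Each line gives 30 bases from RefSeq, build GRCh38.p14, on the strand of the gene and 5′ to 3′. The first 14 bases lie before the annotated transcription start and the other 16 begin at it, in the first exon. Capitals mark an unbroken run of C and T from the start base, and a window with no capitals starts with A or G.
EEF1A1 at chr6:73521017-73521046, minus strand: tcgccgtgaacgttCTTTTTCgcaacgggt
EEF2 at chr19:3985448-3985477, minus strand: ttgacgtcagcgttCTCTTCCgccgtcgtc
EIF3K at chr19:38619174-38619203, plus strand: tccgtttccaccacCTCTTCCTgttcccgt
EIF4A2 at chr3:186783563-186783592, plus strand: ttgggcgccgctgtCTTTTCagtcgggcgc
EIF4B at chr12:53006442-53006471, plus strand: tgcctcatccgggtCTTTTgcgttctcttt
EEF1B2 at chr2:206159595-206159624, plus strand: ccggaagtggccccagcctcgaggccgggc
EIF1 at chr17:41688871-41688900, plus strand: ggcaccgcccctctgccccagtcactgagc
EIF5 at chr14:103334223-103334252, plus strand: cggcggcgttgttcagtcagagcgagaaca

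Each library held between 2642377 and 5605072 counts on genes and between 12657 and 20108 genes with a count, so that 3 counts corresponded to between 0.535 and 1.14 CPM (the count of a gene scaled to a library of 1000000 counts), a limit that covers counting error only. One library stood apart: hyperoxia replicate 1 without vehicle had the 12657 genes, a median correlation of 0.83 with the other hyperoxia libraries against at least 0.91 for the rest, and no count for 4 of the members tested, EIF4E, EIF4E3, EIF5A2 and EEF1AKMT1. Results of the libraries without vehicle are therefore also given without it. The A549 markers were KRT8, KRT18, KRT19, EPCAM, CDH1 and the enzymes ALDH1A1 and AKR1B10. Of these 7, 6 reached 10 CPM in a library. EPCAM did not, with at most 1.06 CPM in hyperoxia and 4.8 CPM in normoxia. Summed levels were 7740 to 11368 CPM in hyperoxia and 14060 to 16760 CPM in normoxia. KRT8, KRT18 and EPCAM did not overlap between oxygen levels, while KRT19, CDH1, ALDH1A1 and AKR1B10 did. The summed difference moves with oxygen, and its part in the results below was not tested. The summed levels of fibroblast, leukocyte, endothelial and erythroid markers reached at most 12.9, 1.91, 6.26 and 0.26 CPM. All levels below are CPM after TMM normalization over the 14 libraries.

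The first question was which translation factors differed between hyperoxia and normoxia. A small number of genes moved far, EEF1A1 downwards and EIF1, EIF4A2 and EIF5 upwards, while most eIF3, eIF2 and eIF2 kinase genes passed no test. Of the 68 members 66 were tested. EIF4E1B, which had at most 4 counts in a library, failed the filter on low counts, and the symbol EEF1D_1 had no count. With vehicle, 4 members were higher and 7 lower in hyperoxia (16.7%, against 17.5% of all genes tested). With ATRA, 5 were higher and 16 lower (31.8%, against 22.7%). Without vehicle, 5 were higher and 13 lower (27.3%, against 15.2%). When only the libraries of a set were fitted, the 11 calls with vehicle became 23. The 18 without vehicle became 2, EEF1A1 and EIF1. Pooling both treatments (5 against 5 libraries), with ATRA as a covariate, gave 26, which is not a count for vehicle alone. The share of all genes called is not given for these alternative fits, so their counts cannot be read against a background. In the main fit the share of members called in the vehicle set was at the background of all genes. Split by direction, the backgrounds were 8.68% higher and 8.81% lower with vehicle, 11.4% and 11.3% with ATRA, and 7.57% and 7.58% without vehicle. The median log2 fold change of the members was -0.13 with vehicle, -0.16 with ATRA and -0.32 without vehicle, and that of all genes was 0.01, 0.01 and -0.10.

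The 3 sets share no library, but their tests are not independent. The vehicle and ATRA sets were tested in 1 fit. The set without vehicle was tested in a fit of all 14 libraries, so its spread was estimated with the other sets. A total of 9 members passed the test in every set, namely EIF1, EIF4A2 and EIF5 as higher and EEF1A1, EEF1B2, EIF2S2, EIF3K, EIF4G1 and EIF4H as lower. They made up 13.6% of the members tested, against 8.52% of all genes called in the same direction in every set, with 4.55% of members higher (against 4.05%) and 9.09% lower (against 4.47%). None was called in opposite directions, 25 were called in at least 1 set (37.9%, against 31% of all genes) and 41 in none. Of the 9, EEF1A1 and EIF1 alone kept their call without vehicle when the 4 libraries of that set were fitted by themselves, where the fold changes kept their sign and the edgeR adjusted p was 0.0874 for EIF4A2 and between 0.141 and 0.322 for the other 6. When the library that stood apart was left out, 9 members again passed in every set, with EIF1B in the place of EIF4G1. The number of calls in the vehicle set and in the set without vehicle moved when single libraries were left out. Such a fit leaves 1 library in a group, and the share of all genes called in it is not given. Its count of calls is therefore not read as a result about the members. The 7 calls that needed hyperoxia replicate 1 without vehicle were EIF1AX, EIF2AK1, EIF2B3, EIF2D, EIF3L, EIF4G1 and EIF5A. In bulk RNA a change in every cell cannot be told apart from a change in the share of cells in some state.

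**Figure D1:**
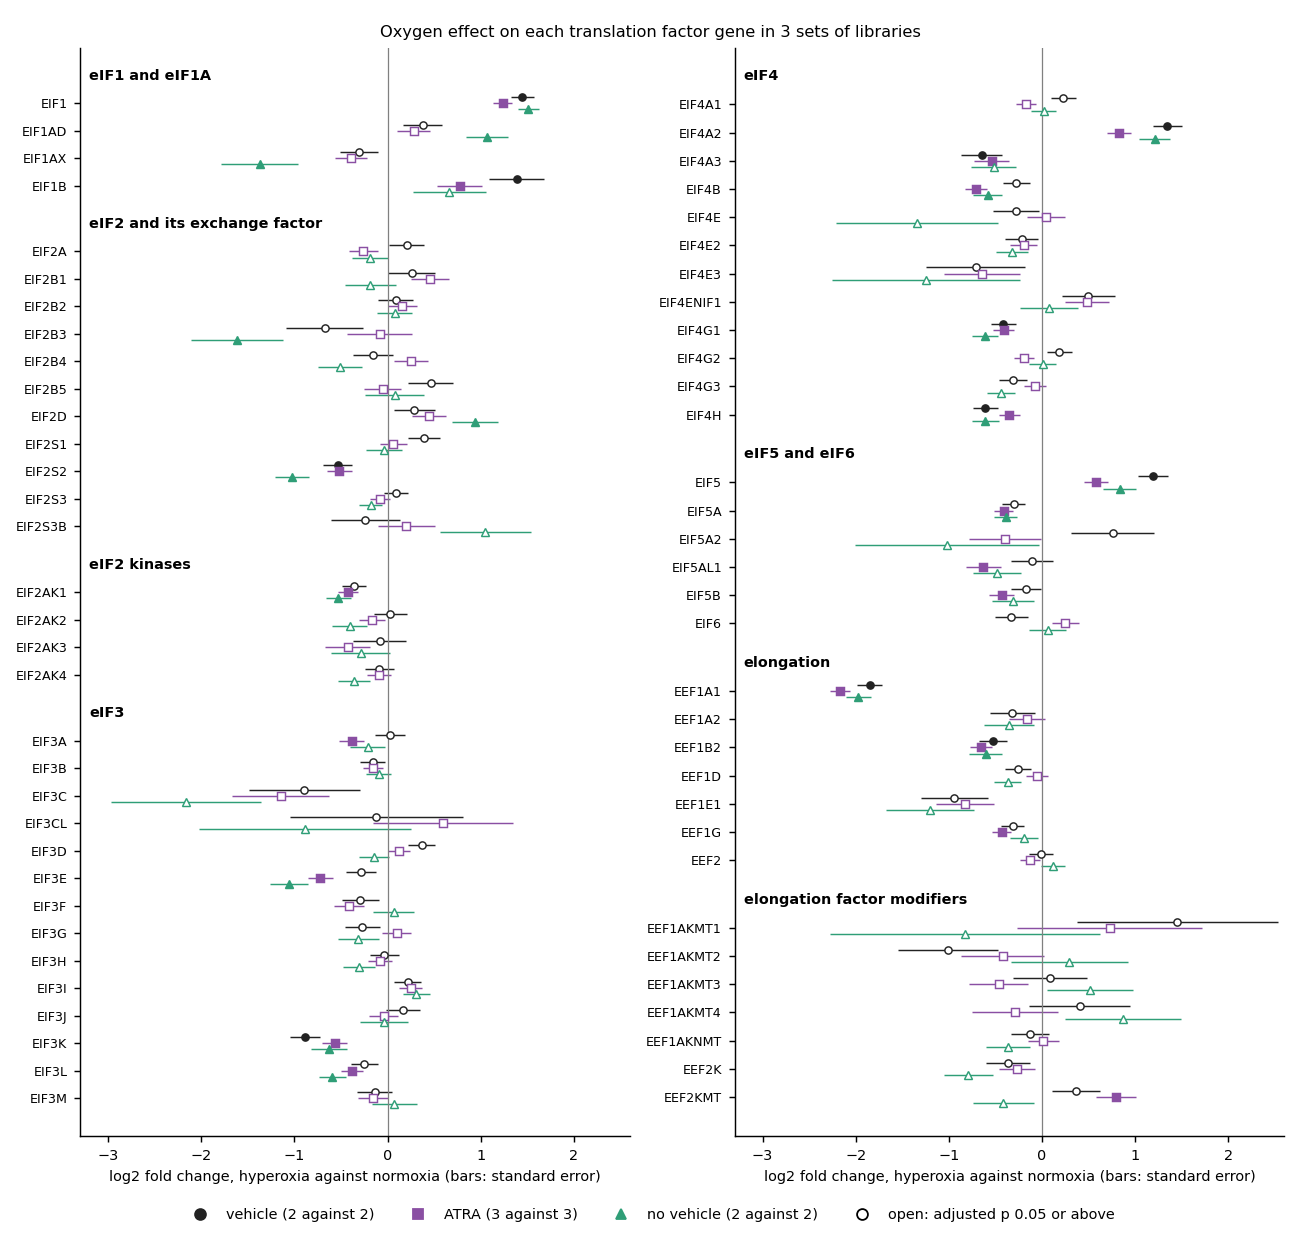
Log2 fold change of each tested member in hyperoxia against normoxia (x axis, bars are standard errors), grouped by symbol. Circles are the vehicle, squares the ATRA and triangles the no-vehicle libraries. Filled symbols have an adjusted p under 0.05. EEF1A1 lies near -2 in all 3 sets, EIF1, EIF4A2 and EIF5 lie to the right in all 3, and most other members lie near 0. EIF1AY is not drawn.

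Among the elongation factors, EEF1A1, the widely expressed form of the tRNA-delivering GTPase, showed the largest difference. Its levels with vehicle were 867 and 942 CPM in hyperoxia and 3469.7 and 3048 CPM in normoxia. With ATRA they were 651, 568 and 656 CPM in hyperoxia and 2562, 2933 and 2936 CPM in normoxia, and without vehicle 773 and 762 CPM against 3179.6 and 2851 CPM. Every hyperoxia library thus lay below every normoxia library by a wide gap. The log2 fold changes were -1.85 (SE 0.13, edgeR adjusted p = 3.77e-09), -2.17 (SE 0.11, adjusted p = 1.75e-11) and -1.97 (SE 0.13, adjusted p = 3.34e-07). EEF1A1 made up between 0.0562% and 0.0967% of counts on genes in hyperoxia and between 0.249% and 0.351% in normoxia. All members together made up between 1.11% and 1.37% in hyperoxia and between 1.41% and 1.61% in normoxia. EEF1A1 has many processed pseudogenes, and reads that aligned to more than 1 place, between 7.83% and 8.91% of the reads or pairs in a library, were not counted for any gene, so its levels are for uniquely placed reads.

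The eEF1B complex differed less. EEF1B2, its exchange subunit, had 136 and 142 CPM in hyperoxia against 219 and 184 CPM in normoxia with vehicle, 138, 139.7 and 125 against 184, 232 and 218 CPM with ATRA, and 169 and 116 against 233 and 202 CPM without vehicle. The groups did not overlap, and the log2 fold changes were -0.53, -0.66 and -0.61 (edgeR adjusted p = 0.0148, 0.000418 and 0.0294). The vehicle call was lost without either hyperoxia vehicle replicate or normoxia vehicle replicate 1, and the call without vehicle without hyperoxia replicate 2 or normoxia replicate 1. The scaffold subunit EEF1G passed the test with ATRA (-0.43, SE 0.10, adjusted p = 0.00322), where it had 623, 577 and 583 CPM in hyperoxia and 795, 748 and 864 CPM in normoxia. In the other sets its log2 fold changes were -0.31 (adjusted p = 0.0862) and -0.19. EEF1D, the other exchange subunit, passed in no set (-0.26, -0.06 and -0.37).

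EEF2, the translocase, passed the test in no set. It ranged from 1159 to 1477 CPM over the 7 hyperoxia libraries (median 1324) and from 1220.2 to 1457 CPM over the 7 normoxia libraries (median 1364), with log2 fold changes of -0.02, -0.13 and 0.12. EEF2K, the kinase that inactivates eEF2, had a median of 30.2 CPM in hyperoxia (20.2 to 42.5) and 38.8 CPM in normoxia (35.9 to 47.1) and passed in no set. EEF1A2, the eEF1A form of muscle and neurons, had a median of 60 CPM in hyperoxia (39.2 to 88.9) and 72.1 CPM in normoxia (62.6 to 82.2), and its groups overlapped. The elongation factors thus split, with a large fall of EEF1A1 beside overlapping levels of EEF2.

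**Figure D2:**
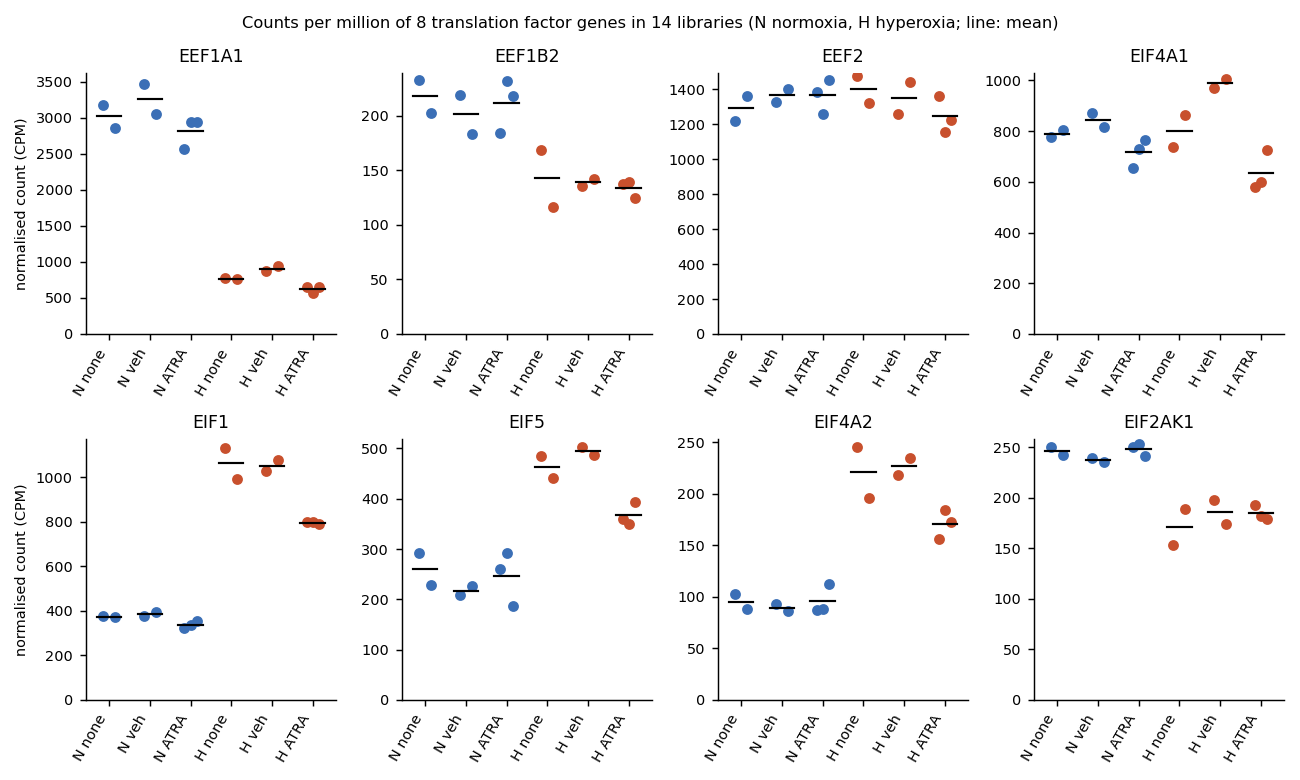
Normalised counts in CPM (y axis, from 0) of 8 members in each of the 14 libraries, by oxygen level (blue normoxia, red hyperoxia) and treatment, with a line at each group mean. EEF1A1 and EEF1B2 are lower and EIF1, EIF5 and EIF4A2 higher in all 7 hyperoxia libraries, EEF2 overlaps throughout, and EIF4A1 is highest in the 2 hyperoxia libraries with vehicle.

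Among the factors of start codon recognition, EIF1 and EIF5 rose in all 3 sets. EIF1, which keeps the scanning ribosome open until a start codon is found, had 1028 and 1076 CPM in hyperoxia against 377 and 395 CPM in normoxia with vehicle, 799.9, 798 and 789 against 322, 336 and 356 CPM with ATRA, and 1131 and 994 against 376 and 371 CPM without vehicle. The lowest hyperoxia library was above the highest normoxia library in each set. Its log2 fold changes were 1.45 (SE 0.12, edgeR adjusted p = 3.59e-08), 1.24 (SE 0.10, adjusted p = 1.08e-08) and 1.51 (SE 0.11, adjusted p = 7.79e-07). EIF5, the GTPase-activating protein that works on eIF2 at the start codon, had 503 and 487 against 209 and 226 CPM with vehicle, 360.0, 349 and 394 against 261, 291 and 186 CPM with ATRA, and 486 and 441 against 292 and 229 CPM without vehicle. All hyperoxia libraries were again above all normoxia libraries, with log2 fold changes of 1.19 (SE 0.16), 0.58 (SE 0.13) and 0.83 (SE 0.18) and edgeR adjusted p = 1.59e-05, 0.00249 and 0.00481. The last of these calls was lost without normoxia replicate 2 of its set and when only the 4 libraries of that set were fitted (adjusted p = 0.141). Of the 5 eIF1 and eIF1A genes, 2 were higher in each set (40%, against 8.68% of all genes with vehicle, 11.4% with ATRA and 7.57% without vehicle). The pair was EIF1 and EIF1B with vehicle and with ATRA, and EIF1 and EIF1AD without vehicle, where EIF1AX was lower. Only EIF1 was thus higher in all 3 sets.

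EIF1B, a close paralog of EIF1 at a far lower level, rose with vehicle (1.39, SE 0.29, edgeR adjusted p = 0.00184) and with ATRA (0.77, SE 0.24, adjusted p = 0.022). Its levels with vehicle were 45.1 and 32.8 CPM in hyperoxia and 10.8 and 18.1 CPM in normoxia. Without vehicle it had 17 and 39.4 against 20.1 and 15.1 CPM, where the low value was that of the library that stood apart, and did not pass (0.66). The vehicle call was lost without hyperoxia vehicle replicate 1 or without normoxia vehicle replicate 1. EIF1AD, a protein with an eIF1A-like domain, passed in the set without vehicle alone (1.07, SE 0.22, adjusted p = 0.00422), a call lost without normoxia replicate 1 of that set. Its 7 hyperoxia libraries (39.7 to 80.5 CPM) all lay above its 7 normoxia libraries (32.3 to 37.6 CPM). EIF1AX, the scanning factor eIF1A itself and named after its value was seen, was lower without vehicle (-1.37, SE 0.41, adjusted p = 0.0344), where its hyperoxia values were 13.8 and 57.7 CPM and the lower was again the library that stood apart. Reads of EIF1AX may be shared with its Y-linked copy.

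Of eIF2, the carrier of the initiator tRNA, only the beta subunit changed in every set. EIF2S2 had 100.5 and 86.5 CPM in hyperoxia against 145 and 126 CPM in normoxia with vehicle, 78.4, 81.5 and 98.7 against 125, 129 and 117 CPM with ATRA, and 76.5 and 88.3 against 195 and 141 CPM without vehicle. The 7 hyperoxia libraries (76.5 to 100.5 CPM) did not overlap the 7 normoxia libraries (117 to 195 CPM), and the log2 fold changes were -0.54, -0.52 and -1.03 (edgeR adjusted p = 0.0215, 0.00656 and 0.00119). The vehicle call was lost without hyperoxia vehicle replicate 2 or normoxia vehicle replicate 1, and the call without vehicle when only its 4 libraries were fitted (adjusted p = 0.151). The alpha subunit EIF2S1, which carries the phosphorylation site, had 0.39, 0.06 and -0.04, and the gamma subunit EIF2S3 had 0.09, -0.08 and -0.18, with no call. In hyperoxia the median level of EIF2S3 was 297 CPM, and it has a near copy, EIF2S3B, with which reads may be shared. No gene of the exchange factor eIF2B passed in the vehicle or ATRA set. Without vehicle EIF2B3, named after its value was seen, was lower (-1.62, SE 0.49, adjusted p = 0.0359), and EIF2D, a tRNA-delivering factor that can act without eIF2, was higher (0.94, SE 0.25, adjusted p = 0.018). The EIF2D call was lost without hyperoxia replicate 1 and without either normoxia replicate of that set.

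The 4 eIF2 kinases respond to heme shortage and other stress (EIF2AK1, or HRI), double-stranded RNA (EIF2AK2, or PKR), unfolded proteins in the endoplasmic reticulum (EIF2AK3, or PERK) and amino acid shortage (EIF2AK4, or GCN2). None rose. EIF2AK1 had 197 and 174 CPM in hyperoxia against 239.8 and 236 CPM in normoxia with vehicle, 193, 182 and 179 against 250.1, 253 and 242 CPM with ATRA, and 153 and 189 against 250.2 and 242 CPM without vehicle. All hyperoxia libraries were below all normoxia libraries. It was called lower with ATRA (-0.42, SE 0.11, edgeR adjusted p = 0.0058) and without vehicle (-0.53, SE 0.13, adjusted p = 0.0135), and with vehicle it had -0.36 (adjusted p = 0.0614). The call without vehicle was lost without hyperoxia replicate 1 and without normoxia replicate 1. EIF2AK1 overlaps AIMP2 on the other strand, whose counts were between 21.6% and 37.3% of its own. EIF2AK2 ranged from 135 to 167 CPM in hyperoxia and from 133 to 230.3 CPM in normoxia. EIF2AK3 ranged from 15.7 to 23.8 CPM in hyperoxia and from 18.5 to 27.1 CPM in normoxia, and EIF2AK4 from 64.7 to 88.6 CPM and from 77.5 to 109 CPM. All 3 overlapped between oxygen levels and passed in no set.

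The 14 genes of eIF3, the large scaffold of the initiation complex, had none higher in any set. With vehicle 1 was lower (7.14%, against 8.81% of all genes lower), with ATRA 4 were lower (28.6%, against 11.3%) and without vehicle 3 (21.4%, against 7.58%). The class medians were -0.15, -0.16 and -0.26. EIF3K, a peripheral subunit, had 145 and 148 CPM in hyperoxia against 287 and 255 CPM in normoxia with vehicle, 109, 164 and 133 against 211, 173 and 214 CPM with ATRA, and 183 and 129 against 245 and 238 CPM without vehicle. The groups were separate within each set but overlapped over all 14 libraries, through the 183 CPM of the library that stood apart. Its log2 fold changes were -0.89 (SE 0.17), -0.57 (SE 0.14) and -0.63 (SE 0.19), with edgeR adjusted p = 0.000588, 0.00436 and 0.0363. EIF3E was lower with ATRA (-0.72, SE 0.13, adjusted p = 0.000349) and without vehicle (-1.06, SE 0.21, adjusted p = 0.00244), and had -0.28 with vehicle. Its 7 hyperoxia libraries lay between 87.7 and 164 CPM and its 7 normoxia libraries between 176 and 258 CPM. EIF3L, which binds EIF3K in the complex, was lower without vehicle (-0.60, SE 0.14, adjusted p = 0.0114) and in the ATRA set (-0.38), and ranged from 126 to 167 CPM in hyperoxia and from 175 to 210.2 CPM in normoxia. The near copies EIF3C and EIF3CL had between 1.91 and 11.7 CPM and between 0.799 and 13 CPM in hyperoxia, and their values are uncertain because reads may be shared between them.

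Within eIF4 the helicases diverged. EIF4A2, a paralog of the main eIF4A helicase, had 219 and 234 CPM in hyperoxia against 93.1 and 86 CPM in normoxia with vehicle, 156, 184 and 173 against 87.6, 88 and 113 CPM with ATRA, and 245 and 196 against 103 and 88.3 CPM without vehicle. No hyperoxia library came down to the normoxia range. Small RNA genes overlap EIF4A2. Those with the most counts were SNORA63, SNORA81 and MIR1248, at 4.92%, 4.64% and 4.55% of the EIF4A2 counts. Their part in its level was not tested. The log2 fold changes were 1.34 (SE 0.16, edgeR adjusted p = 2.27e-06), 0.83 (SE 0.13, adjusted p = 6.42e-05) and 1.21 (SE 0.17, adjusted p = 0.000154), the last with an adjusted p of 0.0874 when only its 4 libraries were fitted. EIF4A1, the main form, ranged from 580.2 to 1007 CPM in hyperoxia and from 656 to 869.9 CPM in normoxia, with 0.23, -0.17 and 0.02 and no call. EIF4A1 is overlapped by the readthrough gene SENP3-EIF4A1, which held between 109.6% and 119.8% as many counts as EIF4A1 itself, so part of the reads of its exons may be assigned there. EIF4A3, the helicase of the exon junction complex, was lower with vehicle (59.9 and 65.3 against 121 and 78 CPM, -0.65, SE 0.22, adjusted p = 0.0484). It was also lower with ATRA, and had -0.52 without vehicle. Its vehicle call was lost in 6 of 17 alternative analyses, 5 of which left out 1 library.

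The scaffold EIF4G1 had 487 and 437 CPM in hyperoxia against 648 and 585 CPM in normoxia with vehicle, 414, 421 and 449.5 against 645, 558 and 506 CPM with ATRA, and 358 and 432 against 616 and 591 CPM without vehicle. The groups did not overlap, and the log2 fold changes were -0.41 (SE 0.13), -0.41 (SE 0.11) and -0.61 (SE 0.14), with edgeR adjusted p = 0.0362, 0.00925 and 0.00724. The vehicle call was lost when any 1 of the 4 vehicle libraries was left out, the ATRA call without normoxia ATRA replicate 1, and the call without vehicle when the library that stood apart was left out. EIF4G2, a related scaffold that does not bind eIF4E, ranged from 1190.1 to 1409 CPM in hyperoxia and from 1128 to 1682 CPM in normoxia, and EIF4G3 from 89.9 to 122 CPM and from 112 to 142 CPM, with no call for either.

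EIF4H and EIF4B both stimulate the eIF4A helicase. EIF4H was lower in every set, with 125 and 127 against 197 and 188 CPM with vehicle, 144, 145 and 130.1 against 166, 185 and 183 CPM with ATRA, and 130.4 and 114 against 168 and 206 CPM without vehicle. The groups did not overlap, and the log2 fold changes were -0.61, -0.35 and -0.61 (edgeR adjusted p = 0.00297, 0.0253 and 0.00892). The last of these calls was lost without normoxia replicate 2 of its set and when only its 4 libraries were fitted (adjusted p = 0.263). EIF4B was lower with ATRA (-0.71, SE 0.12, adjusted p = 0.000172) and without vehicle (-0.58, SE 0.16, adjusted p = 0.0205), and had -0.28 with vehicle, while its 7 hyperoxia libraries (287 to 367 CPM) all lay below its 7 normoxia libraries (418 to 588 CPM). EIF4E, the cap-binding protein, had between 27.7 and 39.5 CPM in 6 hyperoxia libraries, 0 in the library that stood apart, and between 26.5 and 44.5 CPM in normoxia. It passed in no set.

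EIF5A, the hypusine-bearing factor that helps ribosomes through difficult peptide bonds, ranged from 427 to 588 CPM in hyperoxia and from 585 to 755 CPM in normoxia. It was lower with ATRA (-0.41, SE 0.10, edgeR adjusted p = 0.00479) and without vehicle (-0.39, SE 0.12, adjusted p = 0.041), and had -0.31 with vehicle (adjusted p = 0.0971). The call without vehicle was lost in 12 of 19 alternative analyses. EIF5AL1 is a near copy of EIF5A, and reads may be shared. EIF5A2 and EIF6, the latter a factor that keeps the large ribosomal subunit apart from the small one, passed in no set. EIF6 ranged from 96 to 166 CPM in hyperoxia and from 98.6 to 138 CPM in normoxia, and EIF5A2 from 0 to 16.9 CPM and from 7.3 to 11.5 CPM. Among the 7 modifiers of elongation factors, EEF2KMT, a methyltransferase of eEF2 named after its value was seen, was higher in the ATRA set alone, where its overlapping neighbour ALG1 held between 83.9% and 269% as many counts over the 14 libraries.

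Counting libraries without a model, 13 of 66 members (19.7%) had 7 hyperoxia libraries entirely on 1 side of the 7 normoxia libraries, against 13.7% of all genes. Of these 4 were higher (6.06%, against 6.34% of all genes) and 9 lower (13.6%, against 7.31%). The higher ones were EIF1, EIF1AD, EIF4A2 and EIF5, and the lower ones EEF1A1, EEF1B2, EIF2AK1, EIF2S2, EIF3E, EIF3L, EIF4B, EIF4G1 and EIF4H. Over 5 hyperoxia libraries, leaving out the one that stood apart and hyperoxia ATRA replicate 1, which had 16466 genes with a count at 5605072 counts, there were 19 such members (28.8%, against 21% of all genes), 6 higher (9.09%, against 10.8%) and 13 lower (19.7%, against 10.2%). Fewer libraries on 1 side make separation easier for any gene, so each count is read only against its own background.

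Because all genes of a library share its depth, ratios of counts between members were taken within each library. The pairs were chosen after the values were seen. The ratio of EEF1A1 to EEF2 lay between 0.478 and 0.687 in hyperoxia (median 0.536) and between 1.85 and 2.61 in normoxia (median 2.17). The log2 difference was -1.98, and EEF1A1 was also lower against EEF1G (-1.68) and EEF1A2 (-1.68). The ratio of EIF4A2 to EIF4A1 lay between 0.226 and 0.333 in hyperoxia and between 0.105 and 0.148 in normoxia, a log2 difference of 1.11. For these 4 ratios no library of one oxygen level entered the range of the other. EIF4G2 to EIF4G1 differed by 0.48 on the log2 scale, with overlapping ranges of 2.83 to 3.32 in hyperoxia and 1.91 to 3.02 in normoxia, and EIF1B to EIF1 by -0.46, also with overlap (0.015 to 0.0465 and 0.0285 to 0.0636). No test is given for ratios picked in this way.

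**Figure D3:**
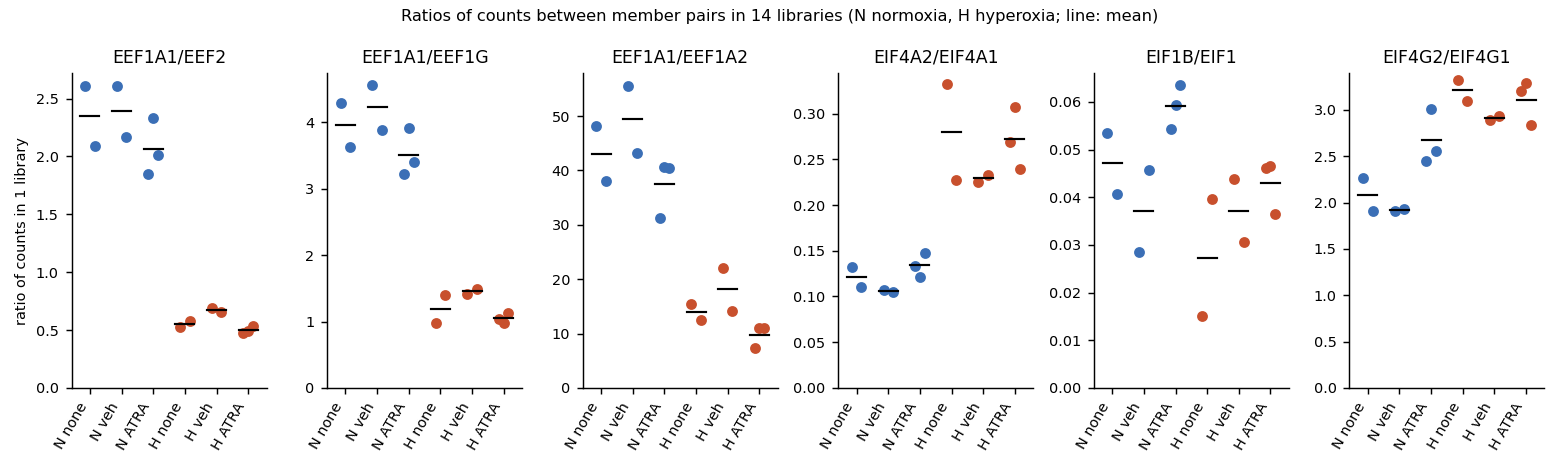
Ratio of the counts of 2 members within each of the 14 libraries (y axis, from 0), by oxygen level (blue normoxia, red hyperoxia) and treatment, with a line at each group mean. The EEF1A1 to EEF2 ratio is 0.687 or less in every hyperoxia library and 1.85 or more in every normoxia library, and the EIF4A2 to EIF4A1 ratio is 0.226 or more in hyperoxia and 0.148 or less in normoxia.

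The order of the factors changed with these shifts. In median CPM per kilobase of the main annotated transcript, EEF1A1 ranked 1 of 66 in normoxia at 836 and 7 in hyperoxia at 217, while EIF1 ranked 9 in normoxia at 159 and 1 in hyperoxia at 425. Behind EIF1 in hyperoxia came EEF1G (422), EEF2 (419), EIF4A1 (419) and EIF5A (406), which are closer to each other than the spread over libraries. EIF4A2 moved from rank 26 to 12 and EIF5 from rank 28 to 18. These levels per length rest on 1 transcript per gene, and transcript use was not measured. Genes may also lose reads unequally. EEF1A1 was counted from uniquely placed reads only, and part of the EIF4A1 reads may be assigned to SENP3-EIF4A1. The ranks therefore order counted reads and do not show which mRNA was more abundant.

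The pyrimidine openings were then set beside the oxygen differences. Of the 53 members with a RefSeq promoter, 12 (22.6%) had a C at the annotated start followed by at least 4 bases that are each C or T, on the strand of the gene, against 1104 of 27305 promoters in all (4.043%). They were EEF1A1, EEF2, EIF2A, EIF2D, EIF2S3, EIF2S3B, EIF3D, EIF3F, EIF3K, EIF3M, EIF4A2 and EIF4B. With vehicle, EEF1A1 and EIF3K among them fell, EIF4A2 rose and the other 9 passed no test, with a median log2 fold change of -0.08. The 40 tested members without the run had 3 higher and 4 lower and a median of -0.14. With ATRA the 12 had 1 higher and 3 lower (median -0.14) and the 40 had 3 higher and 8 lower (median -0.17). Without vehicle the 12 had 2 higher and 3 lower (median -0.04) and the 40 had 3 higher and 6 lower (median -0.32). Among the printed windows EEF1A1 and EEF2 open with runs of equal length, and the level of the first fell while the second passed the test in no set. Of a list of 10 genes widely described as having pyrimidine-tract mRNAs, namely EEF1A1, EEF1B2, EEF1D, EEF1G, EEF2, EIF2S3, EIF3E, EIF3F, EIF3H and EIF4B, 2 were lower with vehicle (20%, against 8.81% of all genes). With ATRA 5 were lower (50%, against 11.3%), without vehicle 4 (40%, against 7.58%), and none was higher in any set. EEF1A1 and EEF1B2 were lower in all 3 sets, EIF3E and EIF4B with ATRA and without vehicle, and EEF1G with ATRA. The list was chosen with earlier results of these data known, so its shares are descriptive only. By annotation EEF1A1, EEF2, EIF2S3, EIF3F and EIF4B have the run, EEF1B2 and EEF1G start with A, and EEF1D, EIF3E and EIF3H had no promoter entry. EIF4A2, which has the run and was higher in all 3 sets, is not on the list. An annotated start is not a mapped cap site, and the letters do not show how an mRNA is translated.

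Other genes of the pathway were given by lists. Of 46 such genes tested, 6 were higher and 5 lower with vehicle (23.9%, against 17.5% of all genes), 8 higher and 7 lower with ATRA (32.6%, against 22.7%), and 7 higher and 3 lower without vehicle (21.7%, against 15.2%). Of the last 10, PPP1R15A alone kept its call when only the 4 libraries without vehicle were fitted. Around eIF2, genes moved in both directions. PPP1R15A (GADD34), which guides the phosphatase that reverses eIF2 phosphorylation, had 319.9 and 363 CPM in hyperoxia against 29.2 and 24.3 CPM in normoxia with vehicle, and log2 fold changes of 3.69, 2.36 and 3.28 (edgeR adjusted p = 8.28e-09, 1.11e-07 and 5.35e-06). ATF4, a transcription factor whose mRNA is translated when eIF2 is phosphorylated, ranged from 407 to 513 CPM in hyperoxia and from 246 to 282 CPM in normoxia, with 0.92, 0.78 and 0.87. SESN2, an inhibitor of mTORC1, also rose in every set (1.64, 2.53 and 1.49). ASNS, asparagine synthetase and a textbook ATF4 target, fell in every set (-1.59, -0.59 and -1.08), with its ATRA call lost without hyperoxia or normoxia ATRA replicate 3. The calls of SESN2 and ASNS without vehicle were lost without normoxia replicate 1. TRIB3, a stress-induced pseudokinase, was lower with vehicle (-0.71, edgeR adjusted p = 0.0131), higher with ATRA (0.62, adjusted p = 0.00986) and not called without vehicle (0.11). Its vehicle call was lost without any 1 vehicle library and its ATRA call without hyperoxia or normoxia ATRA replicate 3. DDIT3 (CHOP) and CHAC1, further stress genes, passed in no set.

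On the mTORC1 side EIF4EBP1, the inhibitor of eIF4E, was lower in every set, with 26.8 and 26.7 CPM in hyperoxia against 81.3 and 64.2 CPM in normoxia with vehicle and log2 fold changes of -1.44, -0.62 and -0.85 (edgeR adjusted p = 2.93e-05, 0.00803 and 0.0166). The last call was lost without hyperoxia replicate 1 or either normoxia replicate of the set without vehicle. DDIT4 (REDD1), an mTORC1 inhibitor induced by stress, fell from 149 and 167 CPM to 37.1 and 41.1 CPM with vehicle, with -2.01, -0.75 and -1.67. RPTOR, a subunit of mTORC1, rose (0.85, 0.70 and 0.87), and so did TSC1, a subunit of the complex that restrains it (0.68, 0.60 and 1.10), with the vehicle call of TSC1 lost without replicate 2 of either oxygen level. EIF4EBP2, EIF4EBP3, MTOR, LARP1 and the 8 termination and recycling genes passed in no set. In all 3 sets the genes of translational control thus moved in both directions, and the list gives no single direction.

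**Figure D4:**
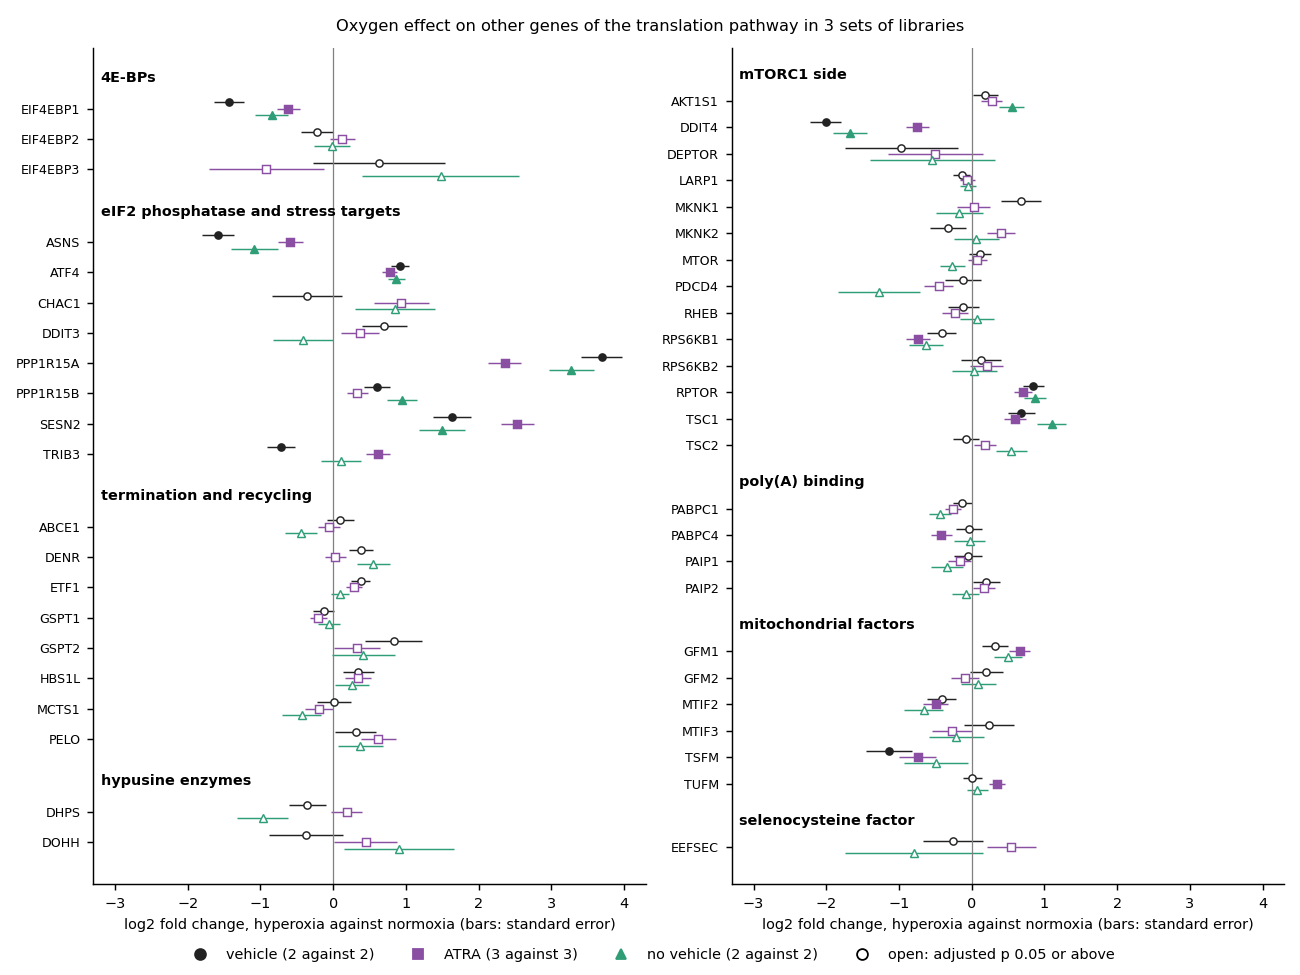
Log2 fold change of 46 other genes of the pathway in hyperoxia against normoxia (x axis, bars are standard errors), by list, in the vehicle (circles), ATRA (squares) and no-vehicle (triangles) libraries, with filled symbols for an adjusted p under 0.05. PPP1R15A lies at 2.36 or above in all sets, DDIT4, ASNS and EIF4EBP1 lie to the left in all sets, and the termination and recycling genes have no filled symbol.

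The next question was whether ATRA changed the factors. In hyperoxia, ATRA against vehicle gave 0 higher and 2 lower members (3.03%, against 2.21% of all genes in either direction and 0.695% lower), with a member median of -0.12. The median of all genes was 0.004, and the members were not tested as a set. EIF4A1 had 580.2, 600.0 and 725 CPM with ATRA and 969.6 and 1007 CPM with vehicle (log2 fold change -0.64, SE 0.12, edgeR adjusted p = 0.004). EEF1A1 had 651, 568 and 656 CPM with ATRA and 867 and 942 CPM with vehicle (-0.53, SE 0.12, adjusted p = 0.0145). The groups did not overlap for either gene. Leaving out vehicle replicate 1 or 2 in hyperoxia ended both calls, and leaving out ATRA replicate 2 in hyperoxia ended that of EEF1A1. Without hyperoxia ATRA replicate 3 or normoxia ATRA replicate 3, 4 members were called. The share of all genes is not given for that count, so it has no background. Against the hyperoxia libraries whose labels name no vehicle, with 737 and 863 CPM of EIF4A1 and 773 and 762 CPM of EEF1A1, the log2 fold changes were -0.33 (edgeR adjusted p = 0.22) and -0.30 (adjusted p = 0.244). In that comparison 0 members passed in edgeR (background 0.43%). EIF1 lay next to the threshold (-0.40, SE 0.11, adjusted p = 0.0528), with 799.9, 798 and 789 CPM against 1028 and 1076 CPM. No eIF2 kinase passed. Among the other pathway genes DDIT4 (1.05, adjusted p = 0.00338) and EIF4EBP1 (0.88, adjusted p = 0.0138) were higher with ATRA and PPP1R15A was lower (-1.03, adjusted p = 0.00997). All 3 calls were lost when either hyperoxia vehicle replicate was left out and against the libraries without vehicle, and that of EIF4EBP1 also without hyperoxia ATRA replicate 1.

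In normoxia no member passed the edgeR test for ATRA against vehicle (background 1.25%). DESeq2 called 1, EIF4G2 (0.36), which was named after its value was seen. EEF1A1 had 2562, 2933 and 2936 CPM with ATRA and 3469.7 and 3048 CPM with vehicle, and EIF4A1 had 656, 728 and 764 CPM against 869.9 and 817 CPM. The values with ATRA were lower for both genes, but neither difference passed. TRIB3 was lower (-1.36, SE 0.18, adjusted p = 0.000157), with 51.9, 49 and 45.5 CPM against 125 and 125 CPM.

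Whether ATRA acted differently at the 2 oxygen levels was tested with an interaction term. No member passed in edgeR (background 0.14%) or in DESeq2. The interaction values were -0.40 (SE 0.17, edgeR adjusted p = 0.622) for EIF4A1 and -0.32 for EEF1A1, so the ATRA difference of these genes was not shown to depend on oxygen. EIF5 had the smallest p among the members (-0.60, SE 0.21, adjusted p = 0.427).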

How the data were processed

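Per the submitters' notes and the study's methods, Trimmomatic 0.38 was used for trimming, HISAT2 for alignment to hg38 and HTSeq for counting, and the authors deposited raw counts without normalization. The strand setting and annotation release are not given in the sources used here. Rows that name no gene held 75.2% to 78.4% of the reads of a library and were left out. Tests used edgeR 4.0.16 under R 4.3.3 (filterByExpr with a minimum count of 10 and total of 15, TMM, quasi-likelihood tests, Benjamini-Hochberg adjustment over all genes, threshold 0.05). The vehicle and ATRA libraries entered 1 fit (10 libraries, 4 groups, 14957 genes). The libraries without vehicle were tested in a fit of 14 libraries (6 groups, 15339 genes). A library whose labels disagree on its treatment was assigned to no group. Of the members 67 matched RefSeq (66 by symbol, 1 by synonym). The procedure was tested on simulated data. Named members were all that passed a comparison, or the 12 with the smallest p where more passed, plus the kinases, eIF2, eIF4F, eIF5A, eIF6 and elongation genes. EIF1AY is counted without values. Members, lists and tests were chosen with earlier results of these data known. Plots used matplotlib 3.10.9 (Python 3.11.15). DESeq2 1.42.0, other scalings, filters and sample sets were alternatives. Replicates differed by more than sampling noise (chi-square per degree of freedom 3.98 to 31.5).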

Additional observations from a re-analysis of the deposited data

Results flagged for a closer look

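TRIB3 was the gene of the lists whose ATRA effect differed between the oxygen levels by the interaction test. Its log2 fold change for ATRA against vehicle was -0.02 in hyperoxia and -1.36 in normoxia, and the interaction was 1.33 (SE 0.26, edgeR adjusted p = 0.0364). The levels were 86.4, 51.7 and 84.5 CPM with ATRA against 76.3 and 76.1 CPM with vehicle in hyperoxia, and 51.9, 49 and 45.5 CPM against 125 and 125 CPM in normoxia. The interaction passed in 6 of 15 alternative analyses and was lost without any 1 of the vehicle libraries, hyperoxia ATRA replicate 3, or any 1 of the normoxia ATRA libraries. The normoxia libraries without vehicle had 84.8 and 104 CPM, and against them the ATRA difference was -0.95 (adjusted p = 0.16).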

How the results depend on the processing

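The share of all genes called is not given beside the counts of this section. With vehicle, the 11 members called for oxygen became 23 when only the vehicle groups were fitted and 7 with all 14 libraries in 6 groups. Leaving out single libraries gave 6 to 13. A model with ATRA as a covariate, which pools the vehicle and ATRA libraries (5 against 5), called 26. EEF1A1, EIF1, EIF4A2, EIF5, EIF3K and EIF4H kept their vehicle calls in all 17 alternatives. With ATRA the count of 21 did not move beyond 1.5 times, and single libraries left out gave 16 to 21. Without vehicle, 18 became 2 (EEF1A1 and EIF1) when only those groups were fitted, and single libraries left out gave 9 to 31. The 2 members called for ATRA in hyperoxia became 4 with DESeq2, 4 with no filter on low counts and 0 against the controls without vehicle (an alternative added after the data were seen), and single libraries left out gave 0 to 4. The 0 for ATRA in normoxia became 1 with DESeq2, and 0 to 1 with single libraries left out. The interaction count stayed at 0. TRIB3, lower with vehicle by the main analysis, had 0.058 in the model with ATRA as a covariate (edgeR adjusted p = 0.857). That model gives a common oxygen effect for the vehicle and ATRA libraries together, and TRIB3 was lower with vehicle and higher with ATRA. The cause of these changes, that of TRIB3 included, was not tested. No paired analysis was possible because the labels give the groups no shared replicate numbers. Groups of 2 and 3 libraries and depths of 2642377 to 5605072 counts limit what was detectable, least for members above 100 CPM.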
